A study of Homo sapiens with 6 samples.

Results

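The 8 genes described here produce cancer-linked long non-coding RNAs (lncRNAs): MALAT1, NEAT1, H19, MEG3, HOTAIR, GAS5, SNHG1 and TUG1. They were chosen by name, and the data are the accessible regions, called as peaks, that overlap each gene's span plus 5 kb on either side. All 8 were found among the 59679 genes of a RefSeq table (assembly GRCh38.p14) on chromosomes 1 to 22, X and Y. Their windows held 49 of the 507440 regions made by merging the peak lists of the whole study. The assay was ATAC-seq, in which a transposase cuts open chromatin and leaves adapters for sequencing. It was run on NCI-H1703, an established human lung squamous cell carcinoma line. In 3 libraries (titles beginning ASO) the lncRNA DLGAP1-AS2 had been silenced, and 3 control libraries (titles beginning NC) came from the same line. The lists hold no RNA measurement, so the silencing itself was not checked. The labels name no separate cultures, so the spread between libraries may be technical, and all results are from a single cell line.

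Long non-coding RNAs act through their own transcripts or through the act of their transcription, and a promoter that is in use usually lies in open chromatin. MALAT1 localizes to nuclear speckles and is known for its link to metastasis of lung cancer. NEAT1, its neighbour on chromosome 11, is the scaffold of paraspeckles. H19 and MEG3 are imprinted genes expressed from the maternal allele. HOTAIR lies in the HOXC cluster and is studied for its association with the Polycomb complex. GAS5 and SNHG1 are host genes whose introns carry small nucleolar RNAs (snoRNAs), and TUG1 is a broadly expressed lncRNA whose RefSeq entry in this table is classed as protein coding.

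Of the 8 windows, 6 held a peak in every library, H19 held none in any, and HOTAIR held only weak peaks in 4 of the 6. No member passed a test of silenced against control cells. The peaks over TUG1 and SNHG1 covered the gene's annotated promoter window, and also all or part of a window of a neighbour, MORC2 and SLC3A2. The tall peak in GAS5 covered the promoter window of its neighbour ZBTB37 and not the only GAS5 window annotated here. In MALAT1 the upstream one of both annotated starts was covered. MEG3 was open inside the gene and not at its start.

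Promoter sequences, from RefSeq (GRCh38.p14), are shown for the gene starts described below, some covered by a peak and some not. ZBTB37 is no member and is shown because it lies under the GAS5 peak. Each runs 5′ to 3′ on the gene's strand from 250 bases before the start to 50 bases from it, and 6 of the 8 genes had an entry. Capitals mark matches, on either strand, to any of 11 motifs: TATAAA (the core of the TATA box), GGGCGG (SP1 GC box), CCAAT (NF-Y), TGACGTCA (CRE), TGANTCA (AP-1), GGAATG (TEAD), CCGGAAG (ETS), CACGTG (E-box), GCGCATGC (NRF1), AAGATGGC (YY1) and GGNGGCAG (part of the CTCF motif). The first 4 sequences lay under a peak in all 6 libraries and the other 4 under none.
MALAT1, upstream start, chr11:65497488-65497787, plus strand: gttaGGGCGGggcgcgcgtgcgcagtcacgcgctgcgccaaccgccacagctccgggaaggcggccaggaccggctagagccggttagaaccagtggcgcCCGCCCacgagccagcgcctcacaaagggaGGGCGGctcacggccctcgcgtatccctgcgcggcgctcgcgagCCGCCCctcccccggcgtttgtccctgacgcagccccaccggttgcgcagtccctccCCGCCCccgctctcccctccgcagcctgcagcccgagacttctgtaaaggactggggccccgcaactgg
SNHG1, chr11:62855836-62856135, minus strand: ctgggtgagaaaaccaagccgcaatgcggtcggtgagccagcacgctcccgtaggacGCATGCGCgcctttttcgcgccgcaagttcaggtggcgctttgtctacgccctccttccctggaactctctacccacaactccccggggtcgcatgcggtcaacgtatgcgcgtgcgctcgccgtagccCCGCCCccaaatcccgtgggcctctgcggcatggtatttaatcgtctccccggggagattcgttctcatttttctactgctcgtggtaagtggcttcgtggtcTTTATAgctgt
TUG1, chr22:30969015-30969314, plus strand: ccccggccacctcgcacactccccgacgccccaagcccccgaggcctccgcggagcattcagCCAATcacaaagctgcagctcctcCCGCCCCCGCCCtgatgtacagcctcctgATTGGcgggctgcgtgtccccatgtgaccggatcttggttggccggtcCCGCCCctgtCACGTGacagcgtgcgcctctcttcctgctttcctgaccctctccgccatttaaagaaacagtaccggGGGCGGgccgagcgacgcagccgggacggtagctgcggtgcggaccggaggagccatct
ZBTB37, chr1:173868130-173868429, plus strand: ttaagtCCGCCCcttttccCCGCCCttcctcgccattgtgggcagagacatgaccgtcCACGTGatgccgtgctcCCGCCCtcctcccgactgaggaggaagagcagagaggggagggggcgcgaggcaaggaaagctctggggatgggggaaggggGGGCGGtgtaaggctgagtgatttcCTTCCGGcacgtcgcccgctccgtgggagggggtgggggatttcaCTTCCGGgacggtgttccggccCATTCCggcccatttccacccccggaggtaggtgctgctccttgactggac
MALAT1, downstream start, chr11:65498795-65499094, plus strand: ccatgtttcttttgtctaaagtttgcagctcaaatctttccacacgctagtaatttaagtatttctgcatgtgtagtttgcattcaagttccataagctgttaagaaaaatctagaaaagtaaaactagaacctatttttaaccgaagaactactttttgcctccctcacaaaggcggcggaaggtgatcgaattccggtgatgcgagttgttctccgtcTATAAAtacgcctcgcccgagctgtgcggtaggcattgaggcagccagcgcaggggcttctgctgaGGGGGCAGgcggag
GAS5, chr1:173868996-173869295, minus strand: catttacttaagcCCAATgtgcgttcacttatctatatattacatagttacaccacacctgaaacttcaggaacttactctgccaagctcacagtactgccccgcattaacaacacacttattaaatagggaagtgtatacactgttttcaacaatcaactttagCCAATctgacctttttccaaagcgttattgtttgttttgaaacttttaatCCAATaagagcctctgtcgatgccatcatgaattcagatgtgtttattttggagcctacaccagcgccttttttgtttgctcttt
MEG3, first of 3 overlapping entries, chr14:100825858-100826157, plus strand: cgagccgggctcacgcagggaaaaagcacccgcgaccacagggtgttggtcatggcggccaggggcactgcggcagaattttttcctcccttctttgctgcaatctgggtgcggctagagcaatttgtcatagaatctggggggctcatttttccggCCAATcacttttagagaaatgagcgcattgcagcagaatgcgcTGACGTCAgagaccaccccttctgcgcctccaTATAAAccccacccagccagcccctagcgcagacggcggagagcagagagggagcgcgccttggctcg
H19, chr11:2001217-2001516, minus strand: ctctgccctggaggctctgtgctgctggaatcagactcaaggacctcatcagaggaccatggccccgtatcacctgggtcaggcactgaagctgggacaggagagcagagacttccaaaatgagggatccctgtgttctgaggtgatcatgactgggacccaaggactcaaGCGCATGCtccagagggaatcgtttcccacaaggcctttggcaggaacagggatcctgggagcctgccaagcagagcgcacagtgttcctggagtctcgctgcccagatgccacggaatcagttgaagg

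CpG content of these windows is given with its percentile among all promoter windows of the table. The upstream MALAT1 window held 37 CpGs (percentile 90.1) at 73.7% G+C, the SNHG1 window 30 (79.3) at 60.0% and the TUG1 window 28 (75.8) at 67.7%. The ZBTB37 window held 21 CpGs (62.3) at 65.7% G+C, close to the uncovered first MEG3 window with 19 (58.8) at 59.0%. The other uncovered windows held 14 at the downstream MALAT1 start (51.1) at 46.0% G+C, 6 in H19 (36.8) at 57.7% and 5 in GAS5 (33.7) at 37.7%. With so few windows these values are a description. Of the table's 35116 windows of this length, the 12761 with a peak in all 6 libraries had a median of 27 CpGs and the 15892 with none had a median of 4.

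GC boxes (GGGCGG, present in 45.0% of all promoter windows) matched 5 times at the upstream MALAT1 start, 4 times each in TUG1 and ZBTB37 and once in SNHG1, with 2 of the TUG1 matches adjacent. None matched in the 4 uncovered windows. TATAAA (11.5% of windows) was found in the uncovered windows of MEG3 and of the downstream MALAT1 start. With the start base counted as 0, it began at -30 in MALAT1, and the single match in MEG3 began at -18, -28 or -42, depending on which of the 3 annotated starts is taken. In SNHG1 it was found past the start. MEG3 also held the CRE motif (1.85% of windows) and 1 NF-Y motif (34.6% of windows), which matched 3 times in GAS5 and 2 times in TUG1. The NRF1 motif (3.05% of windows) matched once in SNHG1 and once in H19, the E-box (7.26%) once each in TUG1 and ZBTB37, ETS (10.3%) 2 times in ZBTB37 and TEAD (14.0%) once there. The remaining motifs, AP-1 (7.71%) and YY1 (2.89%), matched in none of the 8 sequences, and the partial CTCF motif (16.7%) matched once, at the downstream MALAT1 start. A match is a run of letters and not a bound site.

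The values that follow are the authors' own for each peak: the height is the pileup of fragments at the peak, and the fold enrichment is that pileup over the local background. Neither is normalised between libraries. Peaks sum over all cells of a library, so more open cells and more opening per cell cannot be told apart. Values of a group are listed in the order of replicates 1, 2 and 3. The lists held 91346 to 170882 peaks. Read totals are not given, so depth in reads is unknown, and the lowest background implied by a list, 0.237 to 0.464, stands in for it. Silenced replicate 3 had the lowest background, and control replicate 2 had the highest background and the shortest list. At each of the 6 windows with a peak in every library, silenced replicate 3 had the lowest height of the strongest peak, so heights are read within a library and groups were compared by rank. As a check of the cell label, SOX2 and TP63, which mark squamous lineage, had a peak in all 6 libraries, whereas the windows of the keratin genes KRT5 and KRT6A had peaks in 4 libraries each, none higher than 4. Of 16 marker genes checked, 12 had a peak in all 6 libraries, among them the adenocarcinoma marker NKX2-1, the mesenchymal VIM, the leukocyte PTPRC and the endothelial PECAM1, so a peak in the window of a marker did not tell cell types apart.

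**Figure D1:**
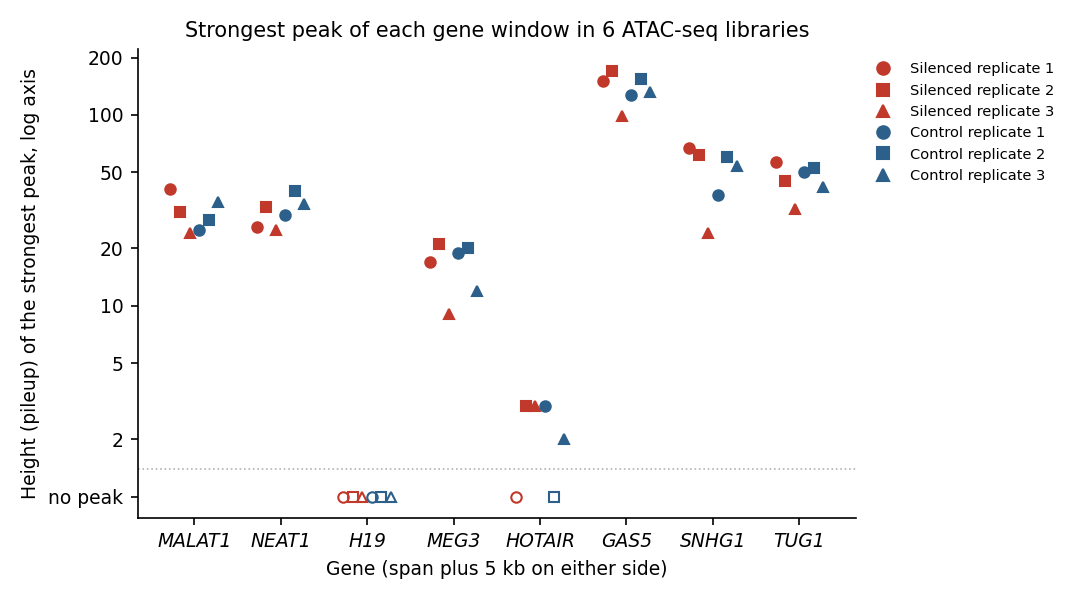
Height (pileup, log axis) of the strongest peak in each gene window, by library; the strongest peak is the one with the highest fold enrichment, filled symbols are called peaks and open symbols mark windows without one. GAS5 sits at 99 to 171, H19 has no peak in any library and HOTAIR reaches at most 3.

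GAS5 had the tallest peaks of the 8 genes in every library. In this snoRNA host, known for rising during growth arrest, the strongest peak had a height of 150, 171 and 99 after silencing against 127, 155 and 132 in the controls. The silenced libraries thus held both the tallest and the lowest value, and the groups overlapped. The region (chr1:173867548-173868861, GRCh38) was 1314 bp long and overlapped the gene's span. By mean height it stood at percentile 99.6 of the 37284 regions called in all 6 libraries, whose median was 16.3. Its midpoint lay 841 bp inside the gene from the annotated start, and no peak in any library touched the GAS5 promoter window. Only that start of GAS5 had an entry, so any other start of the gene was not examined. The promoter window of ZBTB37, which encodes a zinc finger protein and whose span overlaps that of GAS5, was covered over all 300 bases in all 6 libraries. Which of the neighbouring genes the opening serves cannot be told from peaks. A further 3 weaker regions below the span were each called in 2 or 3 libraries at heights of 11 to 16.

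Fold enrichment at the GAS5 peak was 15.0, 15.7 and 15.9 after silencing against 13.9, 13.7 and 12.8 in the controls. The silenced values were all above the control values, although heights did not separate the groups. How often raw folds separate the groups across all genes was not counted. The rank score described below also separated them, as it did in either direction for 10.1% of the 30409 genes scored. Its difference did not pass the test across all genes.

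SNHG1, a snoRNA host often raised in tumours, lies head to head with SLC3A2, which encodes the heavy chain of the CD98 amino acid transporter. One region (chr11:62855578-62856339) covered the SNHG1 promoter window in full in every library, and likewise the most upstream of the 3 SLC3A2 windows, which overlaps it. The heights were 67, 62 and 24 after silencing against 38, 60 and 54 in the controls. Silenced replicate 3 and control replicate 1 were low, and the other 4 libraries lay between 54 and 67. A second region called in all 6 libraries (chr11:62850420-62850951) lay below the span, which is beyond the gene's far end on the minus strand. Its heights were 22, 26 and 15 after silencing against 24, 25 and 21 in the controls. A further region between it and the span was called in 4 libraries at heights of 11 to 19.

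At TUG1, a single region was called in all 6 libraries (chr22:30968470-30969568). The merged region held the annotated starts of both TUG1 and MORC2, which encodes a chromatin-compacting ATPase and runs the opposite way. Heights were 57, 45 and 32 after silencing against 50, 53 and 42 in the controls. Silenced replicates held the highest and the lowest value. All 300 bases of the TUG1 promoter window lay under a peak in each library, whereas the MORC2 window was covered over 92 to 300 bases. Toward the other end of TUG1, 4 regions were called in 1 or 2 libraries each, none higher than 4.

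Across the MALAT1 window, regions sat at both ends of the gene and none lay in between. The region at the upstream start (chr11:65497221-65497998) had heights of 21, 31 and 8 after silencing against 25, 28 and 35 in the controls. It was lowest in silenced replicate 3, where its false discovery rate (FDR, the authors' adjusted p-value) was 0.0269. The region just past the far end (chr11:65506711-65507897) was taller in 5 of the 6 libraries, with heights of 41, 32 and 24 after silencing against 36, 42 and 28 in the controls. This region overlaps the higher-numbered end of the span of TALAM1, an RNA transcribed antisense to MALAT1. As MALAT1 lies on the plus strand, that is the end where TALAM1 begins. At 1187 bp it stood at percentile 93.4 for length among regions called in all 6 libraries. A neighbouring region (chr11:65508008-65508689) was called in 5 libraries at heights of 21 to 40 and not in silenced replicate 3.

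The strongest peak of MALAT1 by fold enrichment changed place between libraries. In silenced replicates 1 and 3 it was the far-end region, and in silenced replicate 2 and the 3 control libraries it was the upstream start. At NEAT1 and MEG3 the strongest peak likewise moved between regions. At MEG3 it lay near the annotated starts in silenced replicates 2 and 3 and deeper in the gene in the other libraries. The window scores given below for these genes thus do not follow a single region. The folds of the strongest MALAT1 peaks were 6.38, 6.81 and 5.61 after silencing against 6.63, 6.07 and 7.96 in the controls. The groups overlapped.

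NEAT1 had the most regions of the 8, 14, of which 4 were called in all 6 libraries. The one over the lower-numbered end of the span (chr11:65422711-65423259) had heights of 27, 33 and 25 after silencing against 30, 37 and 34 in the controls. Control replicate 1 lay within the silenced range, so the groups overlapped. A region below the span (chr11:65418650-65419290) had heights of 23, 28 and 15 after silencing against 30, 40 and 30 in the controls. All 3 control heights exceeded the silenced ones there, but heights are not normalised between libraries and the rank scores overlapped. How often heights separate the groups across all regions was not counted. The region inside the span (chr11:65428220-65428765) reached 13 to 22, and the one above it (chr11:65448356-65449312) reached 16 to 33. Strand and promoter sequence of NEAT1 were not used here, so these positions are given by span end alone.

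MEG3, studied as a growth-suppressing imprinted lncRNA, had 2 regions called in all 6 libraries, both within the span. The first (chr14:100827999-100828479) was centred 2107 bp downstream of the nearest annotated start, with heights of 13, 21 and 9 after silencing against 11, 18 and 15 in the controls. The second (chr14:100851143-100851637) was centred 25258 bp downstream, with heights of 17, 16 and 4 after silencing against 19, 20 and 12 in the controls. Silenced replicate 3 was lowest at both regions. The 3 annotated promoter windows of MEG3 carried no peak in any library. The other 8 regions of the window were called in 1 or 2 libraries at heights of 2 to 6.

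HOTAIR held 7 regions, none of them called in more than 3 libraries and none higher than 3. Silenced replicate 1 and control replicate 2 had no peak in the window, silenced replicates 2 and 3 had 3 each and control replicates 1 and 3 had 2 each. The FDR of these libraries' strongest peaks was 0.112, 0.0691, 0.0958 and 0.516 in silenced replicates 2 and 3 and control replicates 1 and 3. Such peaks are at the floor of the lists, whose lowest height was 2 or 3. The nearest region called in every library (chr12:53984797-53985802) began 9843 bp above the HOTAIR span, in the spans of HOXC10 and HOXC-AS3, with heights of 11 to 29.

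H19, which also carries the microRNA gene MIR675, had 0 peaks in the window in each of the 6 libraries. Outside the window the nearest peak was 40915 bp from the span in silenced replicate 1, 56741 bp in silenced replicate 2 and 75968 bp in silenced replicate 3. In the controls it was 41388, 41411 and 41406 bp away, and none of these 6 peaks was higher than 6. The nearest region called in all 6 libraries (chr11:2089504-2089889) began 88238 bp above the span, with heights of 26 to 39. No list shows weaker signal than its own limit, so accessibility below that limit was not detectable.

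**Figure D2:**
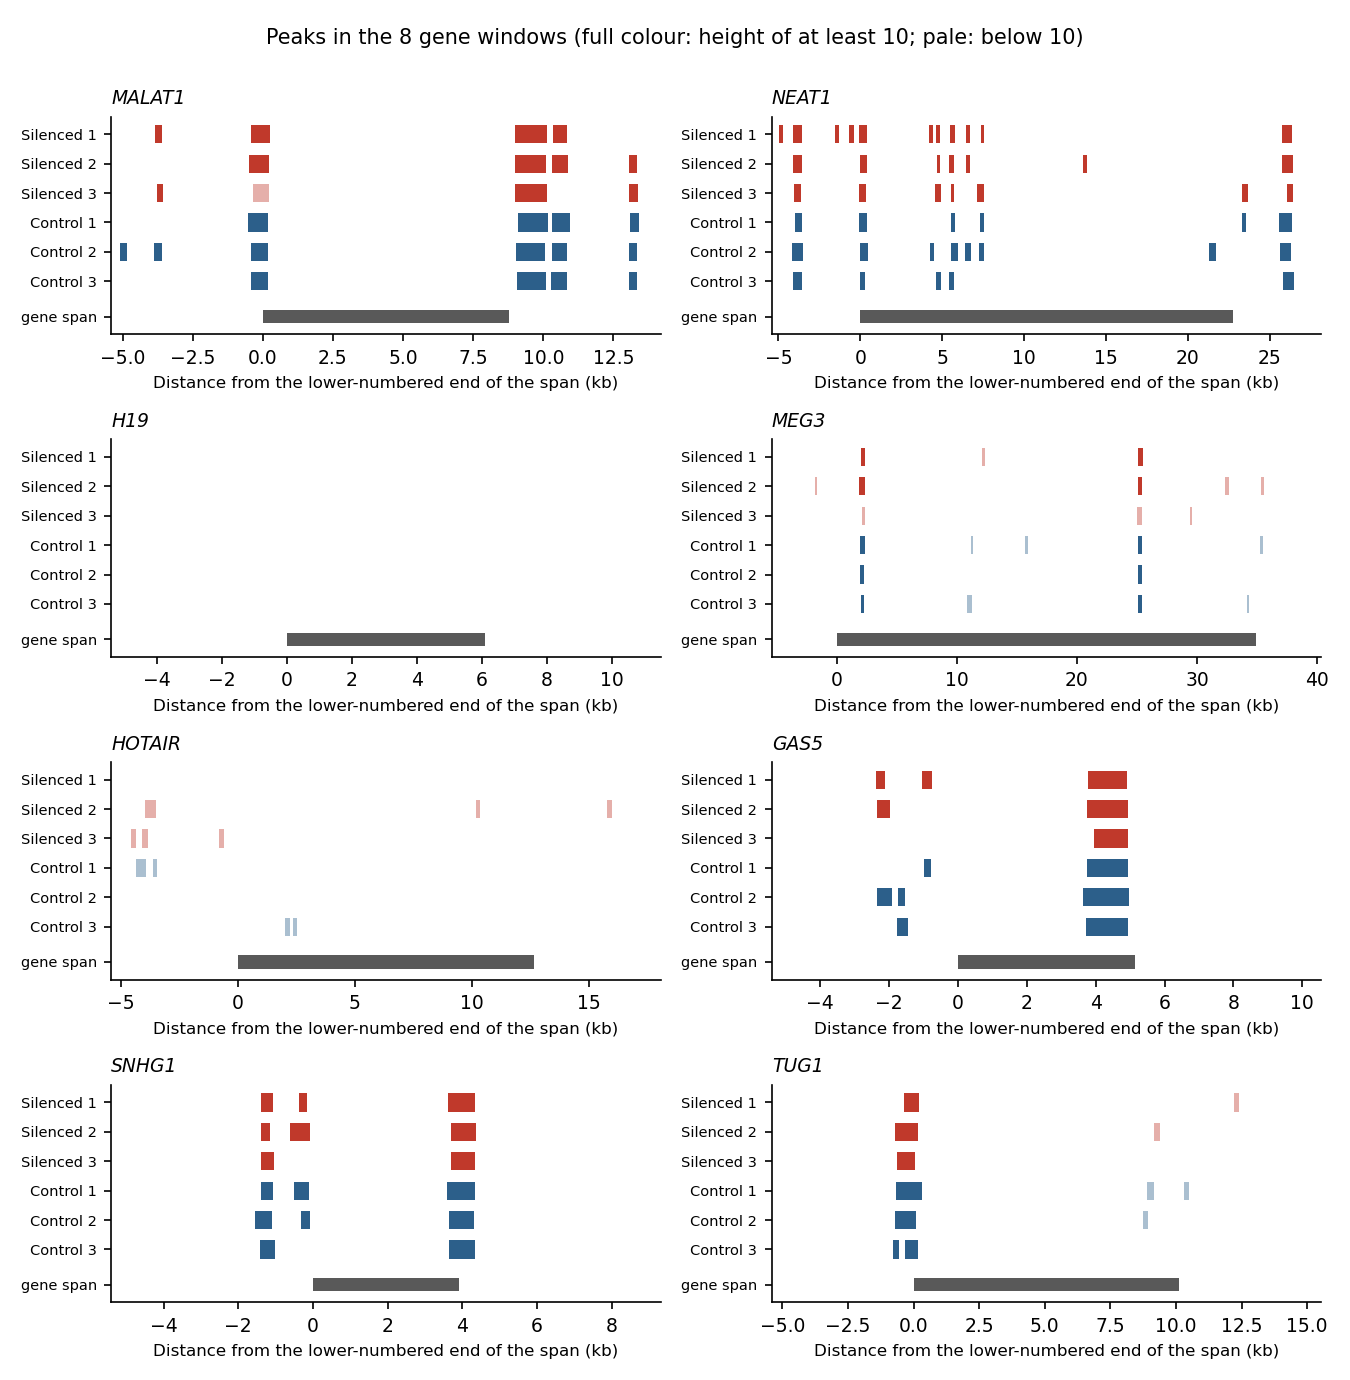
Peaks along each gene window by library; the x axis is the distance in kb from the lower-numbered end of the gene's span, bars are peaks (red silenced, blue control, pale where the height was below 10) and the grey bar is the span. Every window except those of H19 and HOTAIR has at least 1 place where a peak recurs in all 6 libraries. MALAT1 is empty between its ends, and HOTAIR has scattered low peaks.

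By region, 12 of the 49 in the 8 windows (NEAT1 4, MALAT1, MEG3 and SNHG1 2 each, GAS5 and TUG1 1 each) were called in all 6 libraries, where 7.35% of all merged regions were. A further 21 of the 49 were called in a single library, against 74.1% of all regions. None of the 49 was called in all 3 silenced and no control libraries (background 0.130%), and none in all 3 control and no silenced libraries (background 0.200%). At the level of genes, 6 of 8 windows had a peak in every library, against 51.0% of all genes, 49.3% of lncRNA genes and 83.2% of protein-coding genes. Windows differ in length, with a median of 19455 bp for the members and 19038 bp for lncRNA genes. No member window had a peak in 3 libraries of one group and 0 of the other (background 0.523%). A window without any peak, as at H19, was seen for 6.91% of lncRNA genes and 10.6% of all genes.

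The background behind the peaks differed among members. It was taken from each peak as (height + 1) / fold enrichment − 1 and set against the lowest value of the same list. In the MALAT1 window the median was 10.4 to 13.9 times the list's lowest, and in the NEAT1 window 13.5 to 15.9 times. Peaks within 500 kb of these windows had 3.63 to 5.80 times (MALAT1) and 3.59 to 5.69 times (NEAT1) the lowest value. In the GAS5 window it was 8.41 to 22.3 times, with 1 to 1.51 times in the flanks, and at SNHG1 7.44 to 9.77 times, with 2.29 to 5.05 times. The GAS5 window held only 1 to 3 peaks per library, and the value of 22.3 is that of 1 peak in silenced replicate 3. TUG1 stood at 1.11 to 4.81 times, with 1.68 to 2.16 times in the flanks. MEG3 stood at 1.11 to 2.37 times and HOTAIR, in its 4 libraries with peaks, at 1 to 1.44 times. The lowest peak called in the NEAT1 window had a height of 11, against a floor of 2 or 3 in the lists. Fold enrichment divides by this background. By mean height, the region over the lower end of NEAT1 stood at percentile 76 of the regions called in all 6 libraries. By the fold of its strongest peak, the NEAT1 window stood at percentile 13.4 of the genes scored below. These percentiles rank different things, 1 region among regions and a window among genes, so their gap does not measure the effect of background. What sets the background at these loci was not tested.

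**Figure D3:**
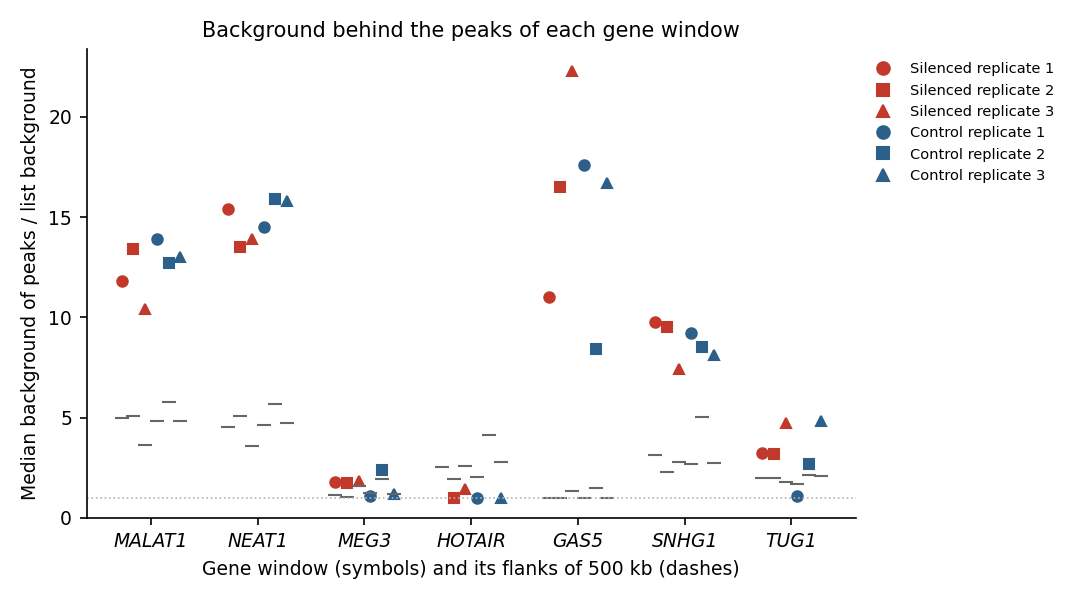
Median background of the peaks in each gene window (symbols, by library) and in its 500 kb flanks (dashes), divided by the lowest background of the same list. MALAT1 and NEAT1 lie at 10.4 to 15.9 in all 6 libraries, while MEG3 stays at or below 2.37.

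To compare the groups, the strongest peak by fold in each gene window was ranked within its list among the 30409 genes with a peak in all 6 libraries, and ranks were turned into normal scores (0 is the middle of the genes, positive is stronger). Mean scores over the 6 libraries put TUG1 first (1.09 ± 0.35, SD, n = 6), then GAS5 (0.75 ± 0.30), SNHG1 (0.28 ± 0.34), MEG3 (−0.06 ± 0.25), MALAT1 (−0.66 ± 0.14) and NEAT1 (−1.10 ± 0.32). TUG1 and GAS5 overlapped, with TUG1 higher in 4 of 6 libraries. GAS5 scored above SNHG1 in 6 of 6 libraries and SNHG1 above MEG3 in 5, although the ranges of both pairs overlapped. The ranges of MEG3 and MALAT1 did not overlap. MALAT1 exceeded NEAT1 in 5 of 6 libraries, with overlapping ranges. HOTAIR and H19 had no score because they lacked a peak in some or all libraries.

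The difference in score, silenced minus control, was largest for GAS5. Its scores were 0.79, 0.84 and 1.29 after silencing against 0.63, 0.55 and 0.42 in the controls, a difference of 0.44 (SE 0.22, adjusted p = 0.968). Every silenced score lay above every control score. Silenced replicate 3 stood highest, and without it the difference was 0.28. This was so for 1 of the 6 scored members, and separation in either direction was seen for 10.1% of the 30409 genes. SNHG1 scored 0.76, 0.41 and 0.16 after silencing against −0.29, 0.33 and 0.33 in the controls, a difference of 0.32 (SE 0.25, adjusted p = 0.968). Control replicate 1 was the low library, and the groups overlapped. Without control replicate 1 the difference was 0.12, and without silenced replicate 1 it was 0.16.

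For the other 4 members the difference was smaller than its standard error: 0.15 (SE 0.27) for TUG1, 0.12 (SE 0.26) for NEAT1, 0.02 (SE 0.21) for MALAT1 and −0.06 (SE 0.23) for MEG3. Their adjusted p-values ran from 0.978 to 0.995, and the groups overlapped at each. At NEAT1, silenced replicate 3 scored −0.47 while the other 5 libraries lay between −1.38 and −1.14. None of the 6 members passed an adjusted p of 0.05, and 0.00329% of the genes tested did. That share is 1 gene, the pseudogene RPEP4, which is no member and was singled out after its values were seen. The strongest peak touching its window had heights of 3, 9 and 5 after silencing against 115, 132 and 131 in the controls. A peak counts from 1 bp of overlap, so a peak at the window's edge can count in some libraries only. RPEP4 was not called when a peak's midpoint had to lie in the window. Nor was it called with the gene span alone or with 10 kb on either side. It was also not called without silenced replicate 2 or any 1 of the control libraries. Whether the window's edge set these heights was not tested.

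**Figure D4:**
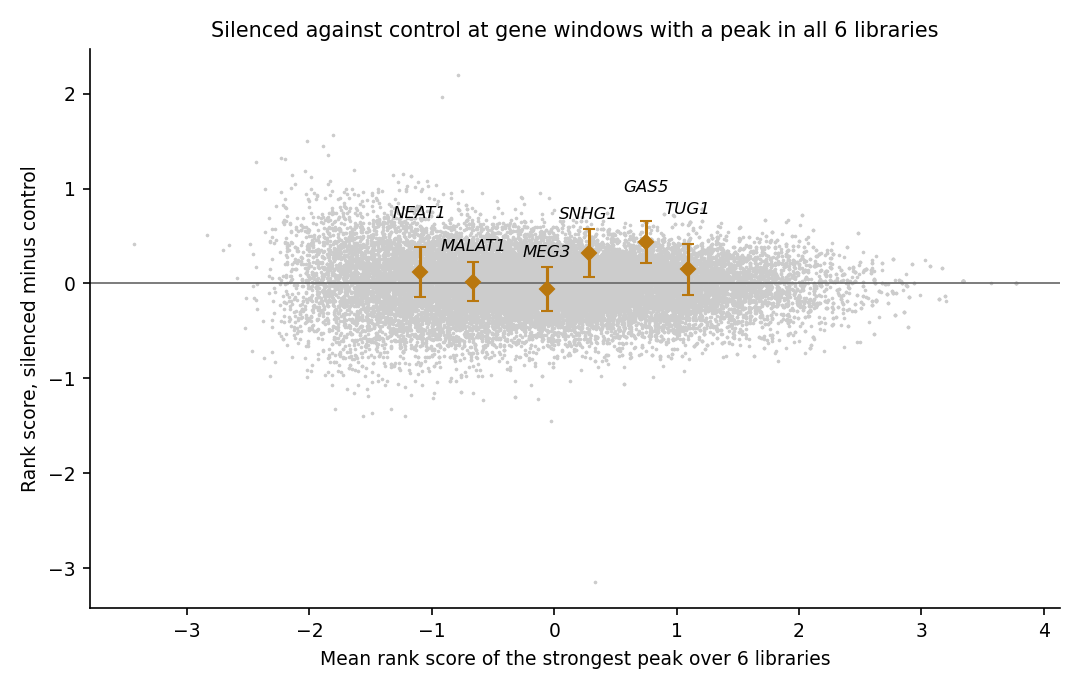
Difference in rank score (silenced minus control, y axis) against the mean score over 6 libraries (x axis); grey points are the 30409 genes with a peak in all 6 libraries, diamonds are members and bars are 1 standard error. The members lie between −0.06 and 0.44, within the grey cloud.

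The length under peaks, ranked in the same way, gave no call at the members either. NEAT1 had 3498, 2710 and 2593 bp under peaks after silencing against 2423, 3561 and 2210 bp in the controls, and the difference in score was 0.13 (SE 0.29). MALAT1 had 2224 to 2977 bp (difference −0.08, SE 0.22), which with NEAT1 placed both above percentile 90 of the genes tested. This ranking does not correct for window length. The windows measured 32743 bp at NEAT1 and 18779 bp at MALAT1, against a median of 15512 bp for all genes. For GAS5, SNHG1, TUG1 and MEG3 the differences were −0.15, 0.01, −0.17 and 0.17, with errors of 0.23 to 0.27. Adjusted p was 1 for all 6, and 0% of the 30409 genes passed, with 1360 at an unadjusted p under 0.05. No member's length scores separated the groups, where 8.74% of genes did.

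Among the 37284 regions called in all 6 libraries, 0% passed (1859 had an unadjusted p under 0.05), the 12 in the member windows included. The largest difference among the 12 was 0.58 (SE 0.36, adjusted p = 0.965), at the region within NEAT1, followed by −0.53 (SE 0.43) at the second MEG3 region. At the upstream MALAT1 start the difference was −0.45 (SE 0.32) and at the far-end region 0.30 (SE 0.28). These 2 regions of 1 gene thus had opposite signs, and neither passed the test. Signs also differed among the shared regions of MEG3 (0.36 and −0.53) and of NEAT1 (−0.34 to 0.58). The regions of GAS5 (0.41, SE 0.24) and the second one of SNHG1 (0.22, SE 0.23) had scores that separated the groups. This is 2 of 12, against 10.2% of all such regions.

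Other cancer-linked lncRNA genes served as surroundings. Of 57 listed, 56 were in the gene table and 50 had a peak in all 6 libraries, while none lacked a peak in every library and none had a peak in all 3 libraries of one group and 0 of the other. Their median score was 0.16, against 0.11 for the 6 scored members, −0.35 for lncRNA genes and −0.01 for all genes. The median difference, silenced minus control, was 0.03 (32 higher, 18 lower), against 0.14 for the members (5 higher, 1 lower). For all genes it was 0.01 (15790 higher, 14619 lower). Of the 50 listed genes with a score, 0 passed the test. The highest mean scores belonged to DANCR (1.74), SNHG15 (1.61) and TP53TG1 (1.30), and the lowest to TINCR (−1.78), SCHLAP1 (−1.68) and FENDRR (−1.41). At DANCR, a snoRNA host, heights were 98, 118 and 55 after silencing against 91, 83 and 120 in the controls. TINCR, an lncRNA of epidermal differentiation, had heights of 3 to 9.

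The lncRNA genes whose 6 scores were closest to those of TUG1, out of 9017 compared, were DHX33-DT (mean absolute difference 0.129) and DNAAF3-AS1 (0.154). Closest to NEAT1, out of 9016, were LOC105370105 (0.0919) and LOC107984772 (0.0930). The likeness is a description over 6 libraries.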

How the data were processed

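Per the submitters' processing notes, which give no role or order, the authors used Trimmomatic 0.36, Bowtie2 2.2.6, Picard 2.8.2, MACS2 2.1.1 and bedtools 2.25.0, and the build GRCh38; parameters are not given in the sources used here. Libraries were made from 10000 to 50000 cells, per the labels' protocols. Each deposited list holds 1 library's peaks with, per the file headers, a fold enrichment (a ratio), a p-value with its FDR, and a pileup signal. Every deposited p-value was at most 0.00987, and no peak was shorter than 200 bp.

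Peaks counted for a gene with an overlap of at least 1 bp with its span plus 5 kb. The 6 lists were merged at 1 bp of overlap. Scores across all genes with a peak in all 6 lists, and across all regions called in all 6, were tested with limma 3.58.1 (R 4.3.3; lmFit and eBayes without a trend, all 6 libraries, Benjamini-Hochberg at 0.05), checked first on simulated data. Overlapping gene windows share peaks, so genes are not independent. Promoter sequences came from RefSeq.

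The members and lists were chosen with earlier results of these data known. The genes named are the 8 members, each with its strongest and its shared regions (up to 3 others), the 3 highest and 3 lowest genes of the comparison list, and the nearest profiles of the highest and lowest member. Marker genes and the genes neighbouring a member or its nearest region are named beside them, and RPEP4 was named after its values were seen. Alternatives were filters on FDR, height and list length, other rankings and windows, a replicate block, and leaving out each library.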

Additional observations from a re-analysis of the deposited data

How the results depend on the processing

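None of the 6 scored members was called under any of the 90 combinations of member and alternative, where the lowest adjusted p was 0.767, for GAS5. GAS5 and SNHG1 kept a positive difference under every alternative run (0.25 to 0.53 and 0.12 to 0.45). The sign reversed for MALAT1 under an FDR limit of 1e-05 (−0.22) and with the gene span alone (−0.32), for NEAT1 at that FDR (−0.05) and with 10 kb on either side (−0.01), and for MEG3 when ranked by p-value (0.01) or height (0.05). Leaving out 1 library gave −0.07 to 0.13 for MALAT1 (reversed without silenced replicate 3 or control replicate 2), −0.15 to 0.28 for NEAT1 (without silenced replicate 3), −0.21 to 0.08 for MEG3 (without silenced replicate 3 or control replicate 1) and −0.06 to 0.39 for TUG1 (without silenced replicate 1). The cause was not tested.

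Across all genes, the count of 1 (RPEP4) fell to 0 with lists of equal size (91346 peaks), under the FDR limit of 1e-05, with heights of 4 or more, with the gene span alone, with 10 kb on either side and with the midpoint rule; it ran from 0 to 1 over the fits that left out 1 library, and was 1 without silenced replicate 1 or 3. The length test and the shared-region test gave 0 throughout, with 940 to 1582 genes and 875 to 2332 regions at an unadjusted p under 0.05. Regions of the member windows called only in silenced or only in control libraries numbered 0 under every filter and window. Without 1 library, when fewer libraries must meet the condition, each count ran from 0 to 1: 1 control-only region in GAS5 without control replicate 1 (3173 of all 428648 regions), in MEG3 without control replicate 2 (6733 of 490042) and in TUG1 without control replicate 3 (3194 of 434466), and 1 silenced-only region in NEAT1 without control replicate 3 (1328 of 434466). The member windows then held 46 or 47 regions, so a single one is not a result about them. Same-numbered libraries did not deviate together (correlations −0.0177 to 0.00111 over genes). Whether libraries of the same number share a batch or culture cannot be told from this. With that number as a block (replicate block), 1 gene was called, 0 genes by length and 0 regions, the differences of the members were as without it (0.44 for GAS5), and no call changed. Read depth is unknown, and heights are lowest in silenced replicate 3, which limits what a missing peak there shows.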
